A study of Mus musculus with 11 samples.

Results

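The genes described here encode 9 RNA-binding proteins that set how long mRNAs persist: Zfp36, Zfp36l1, Zfp36l2, Elavl1, Hnrnpd, Khsrp, Pum2, Celf1 and Rc3h1. They were chosen by symbol, and all 9 were found among the 23284 genes listed for each of 11 RNA-Seq libraries of mouse embryonic stem cells (ESCs). Wild type (WT) cells and cells with Tet1, Tet2 and Tet3 knocked out together (triple knock-out, TKO) were sampled without treatment (0 h) or 4 h after addition of α-amanitin, which blocks RNA polymerase II, at 10 µg/ml. Each of these 4 groups had 2 libraries of ribodepleted total RNA, and a further group had 3 libraries of polyadenylated RNA from WT cells, for which no treatment is named. All cells grew on gelatin with serum and leukemia inhibitory factor, and the TKO cells had been generated earlier, with the number of clones not given in the sources used here. The titles call the 0 h samples non-treated, whereas the treatment protocol speaks of a water vehicle, so whether the 0 h cells received water is not settled by the labels. The study describes its α-amanitin experiment as done in biological duplicate. The labels do not say how the replicates were separated, and p-values measure the spread between these libraries.

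Messenger RNAs are often marked for decay by short motifs in their 3′ untranslated region (UTR). AU-rich elements are read by the ZFP36 zinc finger proteins, which recruit the CCR4-NOT deadenylase complex, and by ELAVL1 (HuR), which mostly protects the bound mRNA. HNRNPD (AUF1) and KHSRP also bind AU-rich elements and are best known for promoting decay, PUM2 reads Pumilio elements, CELF1 reads GU-rich elements, and RC3H1 (Roquin) reads a stem-loop in immune and developmental mRNAs. Several of these proteins are known to bind their own mRNAs or those of the others.

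The AU-rich motifs in the binders' own mRNAs are shown over whole 3′ UTRs of unequal length. No share of other genes was computed for whole UTRs. In GENCODE vM1 gene models on NCBIM37 (the mm9 build), and on the longest annotated 3′ UTR of each gene, the nonamer TTATTTATT was present in Zfp36, Zfp36l1, Zfp36l2, Elavl1 and Rc3h1. It had 1 copy in each except Elavl1, which had 8 copies in 1 cluster, most of them overlapping. No copy was found in Hnrnpd, Khsrp, Pum2 or Celf1. The 29-base sites follow, written 5′ to 3′ on the mRNA's strand with the nonamer in capitals, and for Elavl1 the most 5′ and the most 3′ copy are given.
Zfp36: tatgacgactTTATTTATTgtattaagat
Zfp36l1: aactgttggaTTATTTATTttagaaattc
Zfp36l2: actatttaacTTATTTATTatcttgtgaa
Elavl1, most 5′: gtcatgaaaaTTATTTATTtatttattta
Elavl1, most 3′: gtttatttatTTATTTATTacttgtgagt
Rc3h1: actttactcaTTATTTATTgagatgagga
The Zfp36 site lies at chr7:29161970-29161998 on the minus strand, and its nonamer starts at base 589 after the stop codon. The Zfp36l1 site is at chr12:81209154-81209182 on the minus strand. The Zfp36l2 site is at chr17:84584254-84584282, also on the minus strand. The outermost Elavl1 copies lie at chr8:4285788-4285816 and chr8:4285742-4285770 on the minus strand, with 970 to 1016 bases between a nonamer and the annotated 3′ end. The Rc3h1 site is at chr1:162900174-162900202 on the plus strand.

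Searched on the mRNA's strand only, the nonamer occurred in the last 700 bases of the 3′ UTR of 4.15% of 7329 tested genes with a 3′ UTR of at least that length, and in 2 of the 9 binders (Zfp36 and Zfp36l1). The pentamer ATTTA, which lies inside every nonamer, occurred in that window in 67.8% of those genes and in 8 of the 9 binders. The annotated 3′ UTRs of the 9 genes ran from 774 bases in Zfp36 to 7181 in Rc3h1, so counts over whole UTRs are not on 1 footing. The GU-rich element TGTTTGTTTGT, searched for as a CELF1 motif, was in none of the 9 whole 3′ UTRs and in 1.71% of the 700-base windows.

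Pumilio elements, matched as TGTANATA, were found in only 2 of the 9 mRNAs: Pum2's own, with 2 copies, and Rc3h1, also with 2. In the last 700 bases the element was in 1 of the 9 (Rc3h1), against 17.3% of the tested genes, and both Pum2 copies lie outside that window. The copies in Pum2 are given, with the element in capitals, because they are matches to the binding motif of the protein that this mRNA encodes.
Pum2, 5′ copy: tttatagagaTGTATATAgaattatagt
Pum2, 3′ copy: tgtacagaatTGTATATActtataattg
They lie at chr12:8756961-8756988 and chr12:8757214-8757241 on the plus strand. A match is a description of letters in the annotated UTR and not a site of binding.

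The genes themselves lie at chr7:29161803-29164274 (Zfp36), chr12:81208747-81214000 (Zfp36l1), chr17:84583271-84587287 (Zfp36l2), chr8:4284782-4325100 (Elavl1), chr5:100387445-100407957 (Hnrnpd), chr17:57160481-57170930 (Khsrp), chr12:8680940-8759387 (Pum2), chr2:90780539-90859654 (Celf1) and chr1:162836549-162905109 (Rc3h1). Annotated transcripts on the opposite strand share exon sequence with Zfp36l1 (Gm17591) and Hnrnpd (Gm17092). The strand setting of the counting is not given in the sources used here, so the values of these 2 genes are less certain than those of the other 7.

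The libraries held 25507874 to 29781366 reads when ribodepleted and 72639837 to 82129168 when polyA selected, as recovered from the steps of the TPM values. All 7 ESC markers were above 1 TPM in each group, though several differed between the genotypes, as given beside the genotype comparison. The knockout was visible for Tet1, at 143 and 124 scaled TPM in WT 0 h against 29.97 and 30.2 in TKO 0 h, and for Tet2, at 55.5 and 48.1 against 7.73 and 7.17. Tet3 was low whatever the genotype (1.42 and 1.49 scaled TPM in WT 0 h, 1.39 and 1.51 in TKO 0 h), and gene-level values do not show which exons were deleted. Of the ribodepleted libraries, those of TKO 4 h lay apart from each other on the second principal component. Replicate 1 scored -2.37, between the TKO 0 h libraries (8.14 and 7.81) and the other TKO 4 h library (-15.0). With 2 libraries it cannot be said which of them is the less typical. Results that rest on replicate 1 are given with and without it. A fit without 1 ribodepleted library leaves 1 library in that group, so its p-value takes the spread from the other groups.

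Levels are in scaled TPM, which is the deposited TPM divided by a median-of-ratios size factor per library, and they are per length, so genes can be compared. TPM is a share of a library, so a loss common to all transcripts after transcription is blocked cannot be seen, and in bulk RNA fewer cells expressing a gene and less RNA per cell cannot be told apart. All 9 binders were expressed in every library, with deposited values from 4.37 to 187 TPM. In WT 0 h, Celf1 had the highest mean at 99.8 ± 5.81 scaled TPM (SD, n = 2), followed by Khsrp at 94.2 ± 0.162, Pum2 at 87.7 ± 6.78 and Elavl1 at 78.9 ± 0.530. The gaps from Celf1 to Khsrp and from Khsrp to Pum2 were no larger than the SD of these genes. Hnrnpd came next at 41.0 ± 3.10 scaled TPM, then Zfp36l1 at 22.2 ± 2.05 and Rc3h1 at 18.5 ± 1.501. Zfp36l2 at 13.9 ± 1.62 and Zfp36 at 8.25 ± 0.599 were the lowest. The ZFP36 family as a whole thus summed to 45.1 and 43.6 scaled TPM in the WT 0 h libraries, below Elavl1 alone, which had 79.3 and 78.6.

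**Figure D1:**
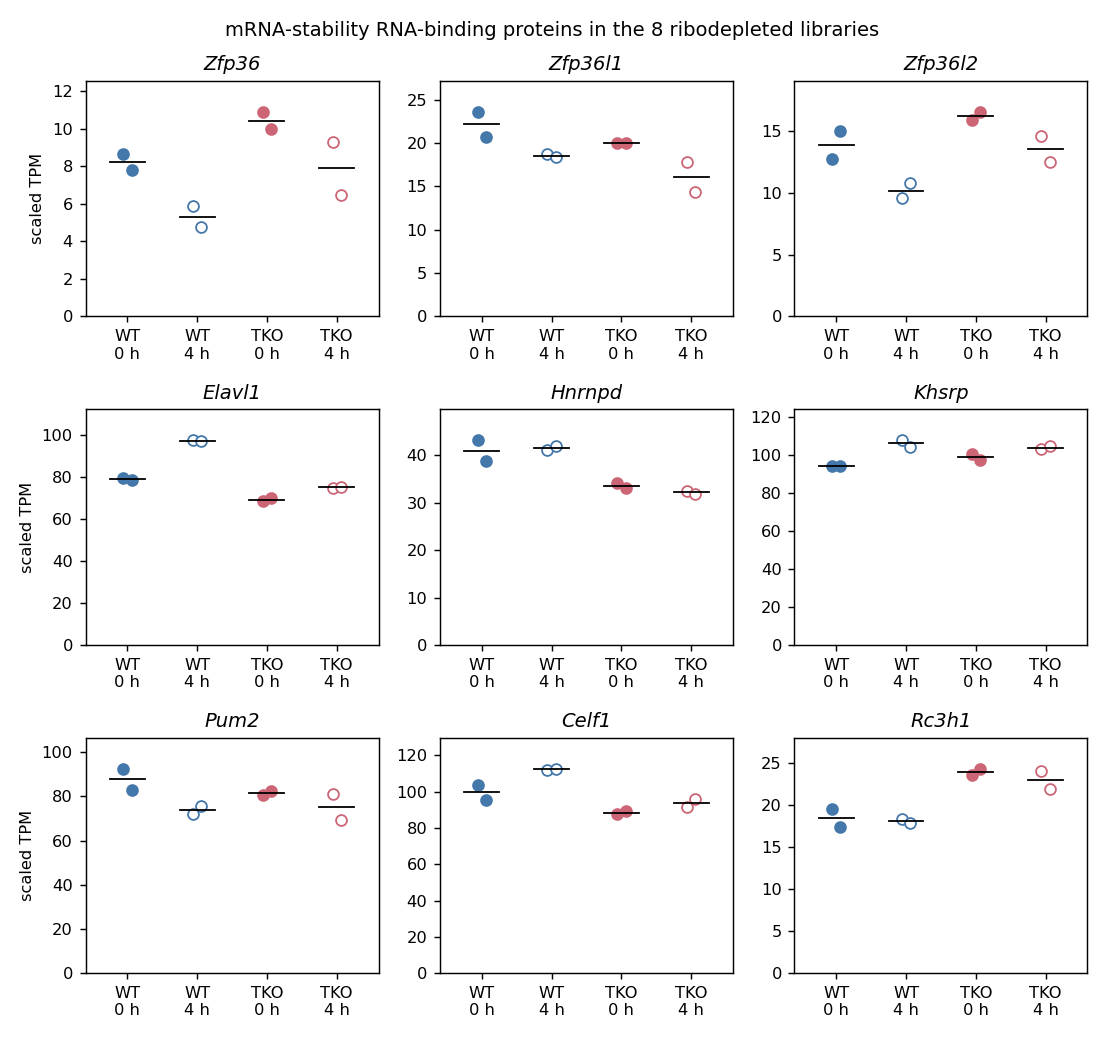
Scaled TPM (y axis, from 0) of each of the 9 genes in the 8 ribodepleted libraries, with 1 point per library, a line at the group mean, filled points at 0 h and open points at 4 h. Elavl1 rises from 79.3 and 78.6 to 97.4 and 97.1 in WT, and both TKO groups sit below both WT groups.

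The first question was which of these mRNAs changed their share after 4 h of α-amanitin in WT cells. How fully transcription was blocked over that time was not tested. Zfp36, Zfp36l2 and Pum2 fell, Elavl1, Khsrp and Celf1 rose, and Zfp36l1, Hnrnpd and Rc3h1 did not pass the test. With limma fitted over 12467 genes, a gene passed at a Benjamini-Hochberg adjusted p under 0.05. Of the 9 genes, 3 passed lower, where 15.8% of all tested genes did, and 3 passed higher, against 21.9% of all tested genes. No binder passed with a change beyond 1.5-fold on the scale of scaled TPM + 1, which 2.01% of tested genes did downwards and 0.0882% upwards. Zfp36 came nearest, 1.47-fold lower on that scale, which understates changes of low genes. Their median log2 change was -0.03, and that of all tested genes was 0.03. Without size factors, on the TPM as deposited, the median of all tested genes moved to -0.11. On that scale 4 binders passed lower and none higher, and 3145 of all tested genes passed lower and 397 higher, so the rises below are relative to the other transcripts.

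Zfp36, the founding member of the family (tristetraprolin), was the binder that fell most. It went from 8.68 and 7.83 scaled TPM at 0 h to 5.91 and 4.74 at 4 h, with both treated libraries below both untreated ones. The change was -0.55 on the log2(scaled TPM + 1) scale (SE 0.15, limma adjusted p = 0.022), and 2.78% of tested genes fell further. Only 112 to 221 reads stood behind each WT value, and the call was lost when any of the 4 WT libraries was left out (limma adjusted p = 0.052 to 0.12).

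Zfp36l2 fell from 12.8 and 15.0 scaled TPM to 9.60 and 10.8, again without overlap. Its log2 change was -0.41 (SE 0.10, limma adjusted p = 0.015), and it lost the call without WT 0 h replicate 2 (limma adjusted p = 0.077) or WT 4 h replicate 1 (0.10). Zfp36l1, the most abundant of the family, went from 23.6 and 20.7 to 18.8 and 18.4 scaled TPM. The libraries did not overlap, but its log2 change of -0.24 (SE 0.10) missed the threshold (limma adjusted p = 0.082), with a 95% interval from -0.46 to -0.02. It passed on deposited TPM (log2 change -0.39, adjusted p = 0.040), with voom on the recovered reads (-0.25, adjusted p = 0.025), and without either TKO 4 h library (adjusted p = 0.020 and 0.021 in limma). Together the 3 mRNAs summed to 45.1 and 43.6 scaled TPM at 0 h and 34.3 and 33.9 at 4 h.

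Elavl1, whose product protects AU-rich mRNAs, moved the other way. Its longest annotated 3′ UTR, of 4818 bases, holds 8 nonamers, the most of the 9 over whole UTRs of unequal length. None lies in its last 700 bases. It rose from 79.3 and 78.6 scaled TPM to 97.4 and 97.1, a spread within each group far smaller than the gap. The log2 change was 0.30 (SE 0.04, limma adjusted p = 0.0042), and 94.0% of tested genes had a lower change. The call held without any 1 library (limma adjusted p at most 0.044), but not on deposited TPM, where the log2 change was 0.14 (adjusted p = 0.068).

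Khsrp, a KH-domain decay factor, went from 94.3 and 94.1 to 108 and 104 scaled TPM, up by 0.17 on the log2 scale (SE 0.04, limma adjusted p = 0.015). Celf1 went from 104 and 95.7 to 112 and 113 scaled TPM, also 0.17 (SE 0.05, limma adjusted p = 0.030). Both rises were small, and on deposited TPM they were 0.01 on the log2 scale for each gene (limma adjusted p = 0.87 for Khsrp and 0.89 for Celf1). Khsrp lost its call without WT 0 h replicate 1 (limma adjusted p = 0.072), WT 0 h replicate 2 (0.060) or WT 4 h replicate 1 (0.094). Celf1 lost it without either TKO 0 h library (limma adjusted p = 0.065 and 0.066), WT 0 h replicate 2 (0.17), WT 4 h replicate 1 (0.10) or WT 4 h replicate 2 (0.094).

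Pum2, which carries Pumilio elements in its own mRNA, fell from 92.5 and 82.9 scaled TPM to 71.9 and 75.7. The libraries did not overlap, and the log2 change was -0.24 (SE 0.08, limma adjusted p = 0.039). Without any 1 of the 4 WT libraries other than WT 0 h replicate 2, and without either TKO 0 h library, the adjusted p in limma was between 0.054 and 0.21. Rc3h1, the other mRNA with Pumilio elements, stood at 19.5 and 17.4 scaled TPM at 0 h and 18.3 and 17.9 at 4 h. Its groups overlapped, with a log2 change of -0.03 (95% interval -0.19 to 0.13). Hnrnpd overlapped too, at 43.2 and 38.8 against 41.1 and 42.1 scaled TPM, with a log2 change of 0.02 (95% interval -0.11 to 0.15), and its sign turned on deposited TPM (-0.13, limma adjusted p = 0.22).

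The number of the 9 genes that passed was 6 with all libraries. It was 3 without WT 0 h replicate 1, 2 without WT 0 h replicate 2, 1 without WT 4 h replicate 1 and 3 without WT 4 h replicate 2. The lone call in the third case was Elavl1. With quantile normalisation Zfp36 (limma adjusted p = 0.064), Khsrp (0.27) and Celf1 (0.40) lost their calls, and with all genes above 0 tested Zfp36 (0.069), Pum2 (0.092) and Celf1 (0.052) lost theirs. Without the variance trend 4 passed, and Pum2 (limma adjusted p = 0.068) and Celf1 (0.060) did not.

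**Figure D2:**
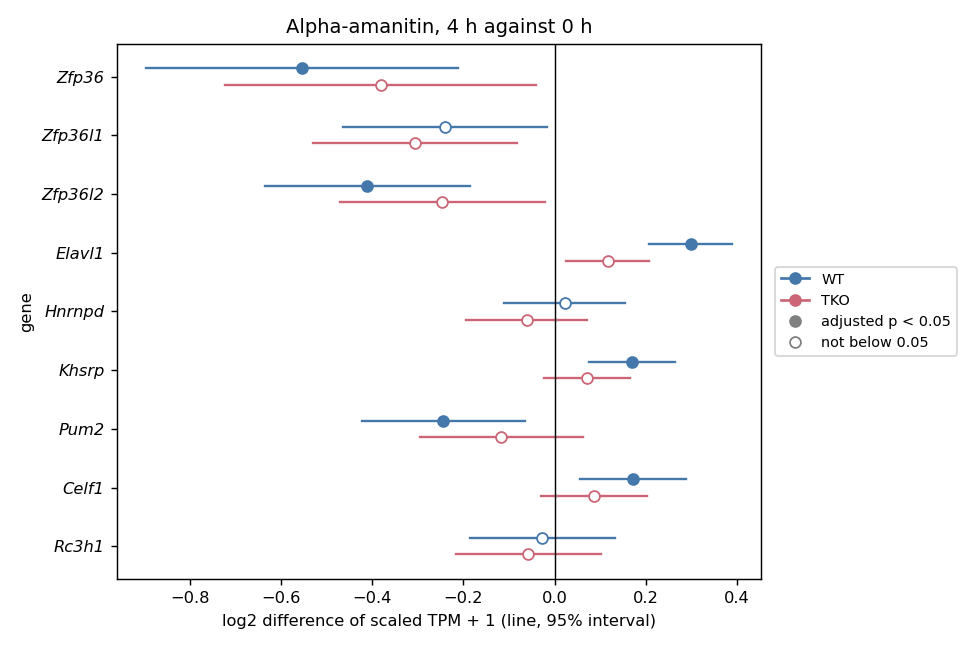
Log2 change of scaled TPM + 1 after 4 h of α-amanitin (x axis) for each gene (y axis) in WT and TKO cells, with 95% intervals, filled where the limma adjusted p was under 0.05. The filled points, all in WT, run from -0.55 for Zfp36 to 0.30 for Elavl1, and no TKO point is filled.

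In TKO cells the same treatment gave no pass for any of the 9 genes in limma, and 4 of them had an unadjusted p under 0.05 (the ZFP36 family and Elavl1). So did 3110 of the 12467 tested genes. Few genes passed at the adjusted threshold: none higher (0%) and 0.265% lower, with 0.16% lower and 0% higher beyond 1.5-fold. None of the ZFP36 family passed. Zfp36 went from 10.9 and 9.98 to 9.33 and 6.47 scaled TPM, Zfp36l1 from 20.04 and 20.02 to 17.9 and 14.3, and Zfp36l2 from 15.9 and 16.6 to 14.6 and 12.5. In each case the lower treated value came from replicate 2. The log2 changes were -0.38 (SE 0.15, limma adjusted p = 0.17), -0.31 (SE 0.10, adjusted p = 0.13) and -0.25 (SE 0.10, adjusted p = 0.18).

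Leaving out TKO 4 h replicate 1, the log2 change was -0.61 for Zfp36 and -0.46 for Zfp36l1. These values rest on replicate 2 alone for TKO 4 h, the library with the lower values. With voom on the recovered reads, 1 binder passed, Zfp36l1 at -0.32 (adjusted p = 0.045). Elavl1 went from 68.4 and 69.9 to 74.9 and 75.1 scaled TPM in TKO cells, up by 0.12 on the log2 scale (SE 0.04) but short of the threshold (limma adjusted p = 0.14). The groups did not overlap, but the step was smaller than in WT. Pum2 stood at 80.6 and 82.5 against 81.2 and 69.5 scaled TPM, with 1 treated library between the untreated ones and the other below them. The other 4 genes moved by -0.06 to 0.09 on the log2 scale, none past the threshold.

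The difference between the TKO and the WT change was then tested directly. None of the 9 genes passed in limma, nor did any of the 12467 genes (0% higher and 0% lower under both rules), and the smallest adjusted p over all genes was 0.53. Elavl1 was the 1 binder with an unadjusted p under 0.05, which 938 of the 12467 genes had. Its rise was 0.18 smaller in TKO on the log2 scale (difference -0.18, 95% interval -0.31 to -0.05, limma adjusted p = 0.66). For Zfp36 the difference was 0.17 with a 95% interval from -0.31 to 0.65, for Zfp36l2 0.17 (-0.15 to 0.48), for Zfp36l1 -0.07 (-0.38 to 0.25) and for Pum2 0.13 (-0.12 to 0.38). The difference turned to -0.06 for Zfp36 without TKO 4 h replicate 1, and to positive values for Zfp36l1 without TKO 4 h replicate 2 (0.09) or WT 0 h replicate 2 (0.03). A pass in WT and none in TKO therefore does not show that the genotypes respond differently. voom gave 0 passes among the 9 as well.

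The second question was how the knockout itself moved the binders' levels. TKO cells had less Elavl1, Hnrnpd and Celf1 and more Rc3h1 than WT cells at both times, and at 4 h they also had more Zfp36 and Zfp36l2. At 0 h, 3 of the 9 genes passed lower, against 28.2% of all tested genes, and 1 passed higher, against 27.8%. At 4 h 3 passed lower, against 30.3%, and 3 higher, against 29.1%. None passed beyond 1.5-fold on the scale of scaled TPM + 1 at either time. By that rule 5.43% of tested genes were lower and 10.5% higher at 0 h, and 5.82% lower and 11% higher at 4 h. The comparisons share libraries with those of the treatment: the WT 0 h and TKO 0 h libraries enter the first, and the 4 h libraries the second.

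Elavl1 had 68.4 and 69.9 scaled TPM in TKO 0 h against 79.3 and 78.6 in WT 0 h. The log2 difference was -0.19 (SE 0.04, limma adjusted p = 0.0037). After 4 h it had 74.9 and 75.1 against 97.4 and 97.1, a difference of -0.37 (SE 0.04, limma adjusted p = 7.7e-05) that passed without any 1 library and under every other setting tried. The 4 h levels of TKO thus stayed below the 0 h levels of WT.

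Hnrnpd, which also reads AU-rich elements, had 34.2 and 33.1 scaled TPM in TKO against 43.2 and 38.8 in WT at 0 h, and 32.6 and 31.8 against 41.1 and 42.1 at 4 h. No TKO library reached the lowest WT library. The log2 differences were -0.28 (SE 0.06, limma adjusted p = 0.0037) and -0.36 (SE 0.06, adjusted p = 0.00078). Celf1 had 87.5 and 89.3 against 104 and 95.7 scaled TPM at 0 h, a log2 difference of -0.17 (SE 0.05, limma adjusted p = 0.019), and 91.7 and 96.1 against 112 and 113 at 4 h, a difference of -0.26 (SE 0.05, adjusted p = 0.0024). At 0 h the Celf1 call was lost without either TKO 0 h library (limma adjusted p = 0.10 and 0.065) or without WT 0 h replicate 1 (0.12), and with quantile normalisation (-0.11, adjusted p = 0.10).

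Rc3h1, encoding the stem-loop binder Roquin, had 23.5 and 24.3 scaled TPM in TKO against 19.5 and 17.4 in WT at 0 h, and 24.0 and 21.9 against 18.3 and 17.9 at 4 h. TKO was above WT in every library at both times. The log2 differences were 0.36 (SE 0.07, limma adjusted p = 0.0024) and 0.33 (SE 0.07, adjusted p = 0.0035), and both passed without any 1 library and under the other settings. Rc3h1 was thus the binder with the steadiest excess in TKO, with 2628 to 4181 reads behind each value.

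Zfp36 had 10.9 and 9.98 scaled TPM in TKO 0 h against 8.68 and 7.83 in WT 0 h, without overlap but short of the threshold (log2 difference 0.31, limma adjusted p = 0.11). It passed without either TKO 4 h library (limma adjusted p = 0.034 and 0.032) and with voom (0.34, adjusted p = 0.037). At 4 h it had 9.33 and 6.47 against 5.91 and 4.74, a log2 difference of 0.48 (SE 0.15, limma adjusted p = 0.022). That call rested on TKO 4 h replicate 1: without it the difference was 0.25 (limma adjusted p = 0.13), and without WT 4 h replicate 2 it was 0.34 (0.15). It was also lost with quantile normalisation (0.32, limma adjusted p = 0.094) and with all genes above 0 tested (0.48, 0.061).

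Zfp36l2 had 15.9 and 16.6 scaled TPM in TKO 0 h against 12.8 and 15.0 in WT 0 h (log2 difference 0.21, limma adjusted p = 0.097), and passed without WT 0 h replicate 2 (0.32, adjusted p = 0.045) and with voom (0.23, adjusted p = 0.032). At 4 h it had 14.6 and 12.5 against 9.60 and 10.8, a log2 difference of 0.38 (SE 0.10, limma adjusted p = 0.0098), which became 0.28 without TKO 4 h replicate 1 (0.060) and 0.29 without WT 4 h replicate 1 (0.080). Zfp36l1 lay on the other side, at 20.04 and 20.02 in TKO against 23.6 and 20.7 in WT at 0 h (log2 difference -0.14, limma adjusted p = 0.26) and at 17.9 and 14.3 against 18.8 and 18.4 at 4 h (-0.20, adjusted p = 0.10). Zfp36l1 passed lower at 4 h without TKO 4 h replicate 1 (-0.35, limma adjusted p = 0.0080) and with quantile normalisation (-0.25, adjusted p = 0.047). The summed family was close in the genotypes, at 46.8 and 46.6 scaled TPM in TKO 0 h and 45.1 and 43.6 in WT 0 h.

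Khsrp and Pum2 did not pass at either time. Khsrp had 100.3 and 97.6 scaled TPM in TKO 0 h and 94.3 and 94.1 in WT 0 h, a log2 difference of 0.07 (95% interval -0.02 to 0.16). Its difference depended on the scaling, with a pass at 0 h on deposited TPM (0.17, limma adjusted p = 0.014) and after quantile normalisation (0.13, adjusted p = 0.015), and with a turn at 4 h from -0.03 to 0.13 on deposited TPM (adjusted p = 0.038). Pum2 differed by -0.10 (95% interval -0.28 to 0.08) at 0 h and 0.03 (-0.15 to 0.20) at 4 h.

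Deposited TPM shifted the median of all genes by 0.07 at 0 h and 0.14 at 4 h on the log2 scale. On that scale 3 binders passed higher and none lower at 0 h, where Elavl1, Hnrnpd and Celf1 had log2 differences of -0.09, -0.18 and -0.08 (limma adjusted p = 0.15, 0.075 and 0.31), and 4 higher and 2 lower at 4 h, where Celf1 (-0.10, adjusted p = 0.17) no longer passed. Of all tested genes 4168 then passed higher and 2191 lower at 0 h, and 5035 higher and 2066 lower at 4 h. The direction of these 3 genes was the same under every scaling tried. Cell type markers also differed between the genotypes at 0 h. Of the 7 ESC markers 5 passed lower in TKO and 1 higher, with a median log2 difference of -0.35. Zfp42 stood at 117 and 113 scaled TPM against 497 and 482 in WT, Esrrb at 108 and 106 against 180.1 and 179, and Klf4 at 25.8 and 22.6 against 47.6 and 49.3. The 5 trophectoderm markers summed to 552 to 568 TPM in TKO and 78.7 to 97.8 TPM in WT, with Krt7 (log2 difference 3.31) and Krt8 (2.55) past the threshold among 3 tested. Of this list 5 of 5 were above 1 TPM in TKO and 3 of 5 in WT, with none at 0 in either. The 5 fibroblast markers summed to 12.7 to 13.2 TPM in TKO and 7.85 to 8.001 in WT, and 2 of 4 tested passed higher (Col1a2 1.18, Col1a1 0.25). The 5 endoderm markers summed to 1.303 to 1.87 TPM in TKO, with Ttr at 0, and to 3.04 to 3.21 in WT, with Afp and Ttr at 0, and Gata4 was lower in TKO (-0.61). Of the neural progenitor markers 1 of 3 tested passed, Nes, at 29.5 and 31.0 against 17.3 and 17.5 scaled TPM, and the list's median was 0.01. The summed neural markers were 35.8 to 38.1 TPM in TKO and 21.8 to 22.0 in WT, where Neurog2 was at 0. Whether these markers play a part in the binders' differences was not tested.

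**Figure D3:**
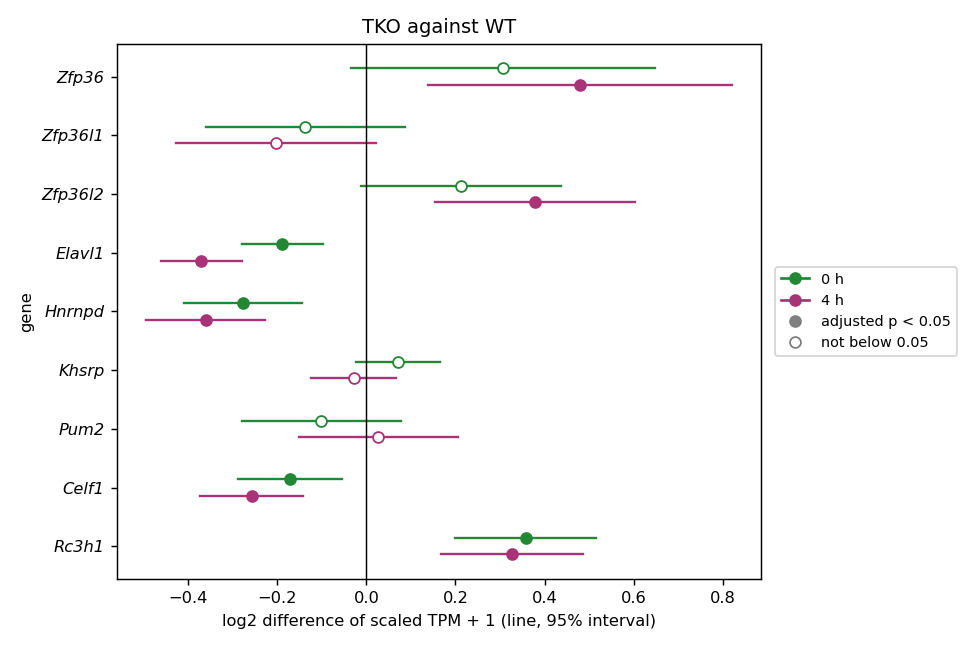
Log2 difference of scaled TPM + 1 between TKO and WT (x axis) for each gene (y axis) at 0 h and at 4 h, with 95% intervals, filled where the limma adjusted p was under 0.05. Elavl1, Hnrnpd and Celf1 are filled below 0 and Rc3h1 above 0 at both times, and Zfp36 and Zfp36l2 are filled at 4 h.

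In the third comparison the polyA libraries of WT cells were set against the ribodepleted WT 0 h libraries. Both sets share the genotype but differ in RNA selection and depth, and may also come from separate sequencing experiments. Effects of selection, depth and experiment cannot be told apart. These 5 libraries were scaled and fitted apart from the others, over 12481 genes, so their scaled TPM differ slightly from those above. Of the 9 binders 5 passed higher in polyA RNA, against 40.1% of tested genes, and 3 lower, against 40.8%. Beyond 1.5-fold 4 were higher, against 18.7%, and 2 lower, against 16.4%. With so many genes on either side, the direction and size for each gene say more than the counts.

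Hnrnpd had 178, 174 and 184 scaled TPM in the polyA libraries and 45.6 and 41.0 in the ribodepleted ones, which made it the most abundant of the 9 in polyA RNA and the fifth in ribodepleted RNA. The log2 difference was 2.02 (SE 0.05, limma adjusted p = 6.1e-09), a 4.06-fold excess on the scaled TPM + 1 scale. Zfp36l1 had 91.3, 89.9 and 89.1 against 24.9 and 21.9, a log2 difference of 1.90 (SE 0.05, limma adjusted p = 1.2e-08). These are the 2 genes with annotated exons on the opposite strand, and whether reads of those transcripts enter their values was not tested.

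The other ZFP36 mRNAs were higher too. Zfp36l2 had 34.2, 32.1 and 32.4 scaled TPM against 13.5 and 15.9 (log2 difference 1.12, SE 0.07, limma adjusted p = 8.7e-07), and Zfp36 had 15.8, 16.2 and 16.4 against 9.16 and 8.27 (0.82, SE 0.06, adjusted p = 1.9e-06). Khsrp was slightly higher at 115, 116 and 106 against 99.6 and 99.4 (0.17, SE 0.05, limma adjusted p = 0.0074).

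Rc3h1 and Elavl1 were lower in polyA RNA. They had 11.4, 10.8 and 10.6 against 20.6 and 18.4 scaled TPM, and 53.4, 52.6 and 55.8 against 83.7 and 83.0. Their log2 differences were -0.78 (SE 0.06, limma adjusted p = 4.4e-06) and -0.62 (SE 0.04, adjusted p = 1.1e-06). Pum2 was lower by a small step, at 85.0, 82.2 and 80.6 against 97.6 and 87.6 (log2 difference -0.16, SE 0.05, limma adjusted p = 0.017), which did not pass without polyA replicate 2 (0.054), polyA replicate 3 (0.062) or WT 0 h replicate 1 (0.10), nor on deposited TPM (-0.06, adjusted p = 0.41) or with quantile normalisation (-0.09, adjusted p = 0.14). Celf1 had 99.8, 99.98 and 97.8 against 110 and 101 (-0.09, 95% interval -0.18 to 0.01, limma adjusted p = 0.096) and passed without WT 0 h replicate 2 (-0.15, 0.011).

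**Figure D4:**
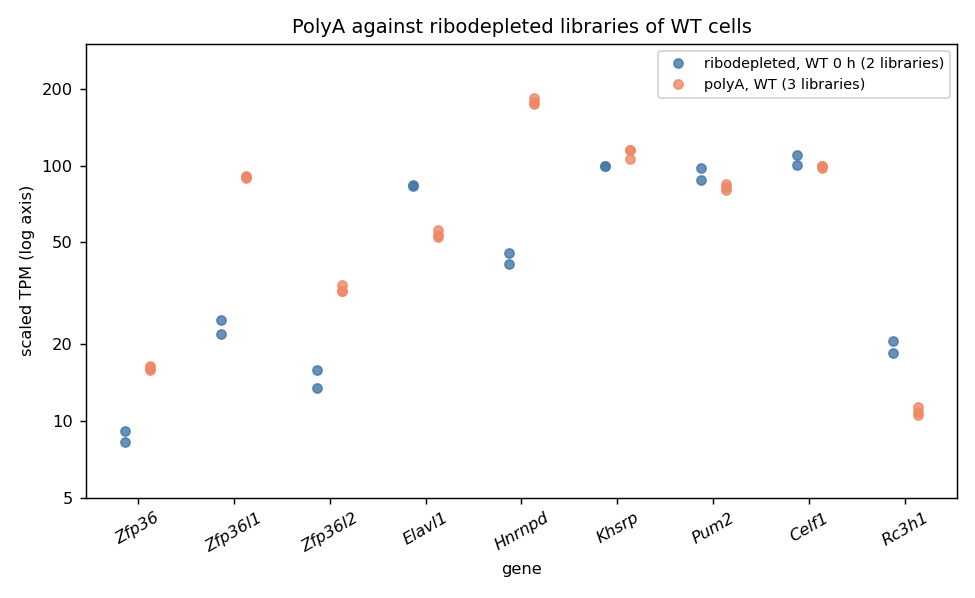
Scaled TPM on a log axis for each gene in 3 polyA and 2 ribodepleted libraries of WT cells, with 1 point per library. Hnrnpd (174 to 184 against 41.0 and 45.6) and the ZFP36 family lie higher in polyA RNA, and Elavl1 and Rc3h1 lower.

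The order of the levels therefore differed between the polyA and the ribodepleted libraries. In polyA RNA Hnrnpd at 179 ± 4.94 scaled TPM (SD, n = 3) was followed by Khsrp at 112 ± 5.52, Celf1 at 99.2 ± 1.23, Zfp36l1 at 90.1 ± 1.10, Pum2 at 82.6 ± 2.20 and Elavl1 at 53.9 ± 1.62. Zfp36l2 at 32.9 ± 1.12, Zfp36 at 16.1 ± 0.337 and Rc3h1 at 10.9 ± 0.417 closed the order, and each gap was larger than the larger SD of its neighbours. Among the ribodepleted groups, Khsrp led in both TKO groups and Celf1 in both WT groups. Zfp36 was the lowest of the 9 in all 4. Elavl1 and Pum2 exchanged places between WT 0 h and WT 4 h, and in TKO 4 h they did not differ beyond their spread, at 75.0 ± 0.182 and 75.4 ± 8.28 scaled TPM (SD, n = 2).

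Genes around these binders in the decay pathway were taken from lists drawn up with earlier results of these data known. Most known AU-rich target mRNAs that were tested fell in WT cells: of 16 listed and 12 tested, 8 passed lower and 1 higher, against 15.8% and 21.9% of tested genes, with a median log2 change of -0.36 against 0.03 for all tested genes. Dusp1, a MAP kinase phosphatase, went from 22.7 and 21.4 to 12.9 and 12.9 scaled TPM (log2 change -0.73, limma adjusted p = 0.0021). Myc went from 35.0 and 33.9 to 21.3 and 22.3 (-0.64, limma adjusted p = 0.0022), and Ier3 from 11.8 and 10.1 to 7.64 and 7.13 (-0.51, adjusted p = 0.0095). Ccnd1, encoding cyclin D1, was the exception that rose, from 121 and 120.3 to 149.99 and 149.7 scaled TPM (0.31, limma adjusted p = 0.0053). The 8 lower calls became 5 without WT 0 h replicate 1 and 3 without WT 4 h replicate 1, and were 6 to 8 without any other library and under the other settings.

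In TKO cells 1 of the 12 passed, Dusp1, from 21.6 and 23.7 to 15.4 and 13.7 scaled TPM (log2 change -0.61, limma adjusted p = 0.044). The median of the list was -0.27 there, and 6 of its genes passed lower without TKO 4 h replicate 1 and 6 with voom. None passed without any 1 of the other 7 libraries. No gene of the list passed for the difference between the genotypes' changes. Between genotypes 4 of the 12 passed higher in TKO at 0 h, where 27.8% of tested genes did, and 2 lower, where 28.2% did. The lower ones were Ccnd1 (log2 difference -0.32, limma adjusted p = 0.00033) and Myc (-0.31, 0.0042). With a minimum mean of 5 scaled TPM, under which low genes such as Ptgs2 were not tested, the higher count was 2. Among the higher genes were Plau, encoding urokinase, at 8.17 and 7.93 against 1.57 and 1.64 scaled TPM (log2 difference 1.80, limma adjusted p = 2.8e-06), Ptgs2, encoding a cyclooxygenase (1.48, adjusted p = 1.5e-05), and Cdkn1a, encoding the cell cycle inhibitor p21 (1.13, adjusted p = 1.3e-05).

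CCR4-NOT, the deadenylase complex that ZFP36, Pumilio and Roquin proteins recruit, was listed with 11 subunits and the adaptors Tob1 and Tob2. In WT cells 3 of the 13 passed lower after α-amanitin, both adaptors (Tob1 -0.37, limma adjusted p = 0.012, and Tob2 -0.32, 0.031) and Cnot4 (-0.33, 0.011), and 2 passed higher, Cnot10 (0.20, 0.015) and D1Bwg0212e, an older symbol of Cnot11 (0.18, 0.020). The shares of all tested genes were 15.8% lower and 21.9% higher, so neither count stood far from them. The median was -0.12, and the lower count was 0 without WT 0 h replicate 1 or WT 4 h replicate 1, 2 without WT 4 h replicate 2, 6 without TKO 4 h replicate 1 and 5 without TKO 4 h replicate 2. On deposited TPM it was 6 and the higher count 0. None passed in TKO, where 2 passed lower and 1 higher once TKO 4 h replicate 1 was left out. At 0 h the catalytic subunit genes Cnot6l (0.82, limma adjusted p = 7.9e-05), Cnot8 (0.54, 2.6e-05) and Cnot7 (0.23, 0.0026) were higher in TKO. Cnot6, also a catalytic subunit gene, did not pass, at 49.0 and 47.9 scaled TPM in TKO against 48.6 and 43.5 in WT. The scaffold gene Cnot1 was lower in TKO (-0.37, limma adjusted p = 0.00026), as were Cnot10 (-0.29, 0.0011) and Cnot3 (-0.26, 0.011), among 4 that passed lower. Of the 13, 3 passed higher and 4 lower, near the 27.8% and 28.2% of all tested genes. The lower count was 2 to 4 under the other settings with all libraries.

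The binders' paralogs gave 12 tested genes. In WT cells Elavl2 fell (log2 change -0.26, limma adjusted p = 0.022). Hnrnpab rose (0.30, limma adjusted p = 0.013), as did Fubp3 (0.21, 0.015). Fubp1, a paralog of Khsrp, was lower in TKO at 0 h (-0.67, limma adjusted p = 2.1e-05), and Celf2 was higher (0.66, 0.00086), at 1.59 and 1.37 scaled TPM against 0.561 and 0.572. Of 27 other mRNA binders tested, 7 passed higher and 3 lower in WT after α-amanitin, near the 21.9% and 15.8% of all tested genes. Ybx1, an abundant cold-shock domain protein gene, rose (0.31, limma adjusted p = 0.0079), and Zc3h12a, which encodes the endonuclease Regnase, fell (-0.52, 0.029). Zc3h12a averaged under 5 scaled TPM, so it was not tested where that minimum mean was set. The higher count was 1 on deposited TPM, 3 with quantile normalisation, 1 without WT 0 h replicate 1, 0 without WT 4 h replicate 1 and 3 without WT 4 h replicate 2. The lower count was 0 without either WT 0 h library or WT 4 h replicate 1, 1 without WT 4 h replicate 2, 2 without either TKO 0 h library, 0 with quantile normalisation or with all genes above 0 tested, and 1 with a minimum mean of 5 scaled TPM.

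**Figure D5:**
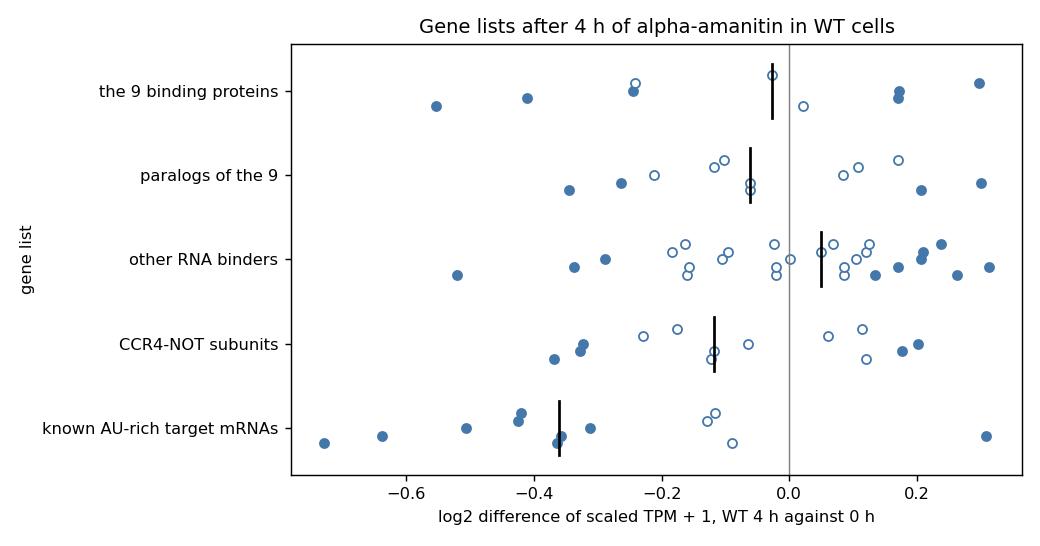
Log2 change of scaled TPM + 1 after 4 h of α-amanitin in WT cells (x axis) for the genes of 5 lists (y axis), 1 point per gene, filled where the limma adjusted p was under 0.05, with a vertical line at each list's median. The known AU-rich target mRNAs have the lowest median (-0.36), and the 9 binding protein genes lie on both sides of 0, with a median of -0.03.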

How the data were processed

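The deposited files give 1 TPM value per gene and library, which the authors computed from gene counts. Per their methods and the submitters' processing notes, reads were checked with FastQC, freed of low-complexity, rRNA and tRNA reads (AfterQC, Bowtie2), trimmed (Trimmomatic), mapped to mm9 by STAR using RefSeq gene models, and counted with HTSeq. Versions and the strand setting are not given in the sources used here. Whole reads were recovered from the steps of the TPM values for 100% of 19869 genes above 0. They set depth and the voom alternative only.

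Groups and replicate numbers came from sample titles. TPM was divided by median-of-ratios size factors, only genes whose scaled TPM averaged more than 1 were tested, and limma 3.58.1 was run on log2(scaled TPM + 1) (R 4.3.3; lmFit, eBayes with trend, two-sided), giving 1 coefficient per group, over the 8 ribodepleted libraries, and apart over 3 polyA and 2 WT 0 h libraries. This took the place of the study's count model because the files hold TPM. Adjusted p-values are Benjamini-Hochberg over all tested genes. Fold changes are on the scaled TPM + 1 scale, which understates changes of low genes, and intervals are 95% from the fit. The fit was also run on simulated data, and the outcome of that run is not given here.

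All 9 genes are named by the rule, with Tet1 to Tet3 and, per list, up to 3 passing genes with the largest rise and 3 with the largest fall. Cnot6 is named outside that rule, beside the other catalytic subunit genes. The 9 genes and the lists were chosen with earlier results of these data known. 3′ UTRs were the longest annotated per gene in GENCODE vM1 on NCBIM37. Replicates of a group differed by more than sampling noise. Counting intervals were not computed, since the values are TPM.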

Additional observations from a re-analysis of the deposited data

How the results depend on the processing

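The number of the 9 genes passing in WT after α-amanitin (6) became 3 with quantile normalisation, 3 when all genes above 0 were tested, 4 without the variance trend, and 1 to 7 when single libraries were left out. The number passing in TKO (0) became 1 with voom and 0 to 2 when single libraries were left out. Counts of the other 4 comparisons stayed within 1.5 times the reported ones. Every sign that turned belonged to a difference that had not passed. On deposited TPM these were Hnrnpd in WT (-0.13), Khsrp (-0.026) and Celf1 (-0.011) in TKO after α-amanitin, the Rc3h1 difference of changes (0.027), Khsrp between genotypes at 4 h (0.13) and Celf1 in polyA RNA (0.018). With quantile normalisation they were Rc3h1 in WT (0.014) and Khsrp between genotypes at 4 h (0.089), and with a minimum mean of 5 scaled TPM they were Hnrnpd in WT (-0.000829) and Khsrp between genotypes at 4 h (0.0097). Leaving out single libraries gave ranges across 0 for the differences of changes of Rc3h1 (-0.11 to 0.049), Zfp36 (-0.057 to 0.41) and Zfp36l1 (-0.21 to 0.086), for Pum2 between genotypes at 4 h (-0.080 to 0.14), for Rc3h1 in TKO (-0.12 to 0.0055) and in WT (-0.11 to 0.051), and for Hnrnpd in WT (-0.054 to 0.096). The cause was not tested.

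The labels do not say whether replicate numbers pair the samples. Departures from the group mean in libraries sharing a number had correlations of -0.044 to 0.12 over genes. With 2 libraries per group, such weak correlations cannot exclude pairing. With a replicate block, 7 of the 9 genes passed in WT (Zfp36l1 joined, adjusted p = 0.047 in limma) and 5 between genotypes at 0 h (Zfp36 joined, 0.028), and it changed no other call. With 2 libraries per group, changes of the size seen in TKO cells may go undetected, and Zfp36, with 112 to 311 reads per ribodepleted library, is the least precise of the 9.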
